A study of Mus musculus with 16 samples.

Results

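The transcripts described here are those of 10 endothelial adhesion molecules that leukocytes bind or that hold neighbouring endothelial cells together: *Vcam1*, *Icam1*, *Icam2*, *Sele*, *Selp*, *Pecam1*, *Esam*, *Madcam1*, *Alcam* and *Mcam*. They were taken by name from the 39057 rows of the count table, and all 10 were found. RNA was sequenced from 16 primary cultures of brain endothelium, 8 of them *APOE3* and 8 *APOE4*. The donors were targeted replacement mice, in which the mouse *Apoe* promoter drives a human *APOE* isoform in every cell that uses this promoter. Each genotype had 4 male and 4 female cultures, 1 brain per well, prepared from the cerebral cortex of mice of 21 to 28 days and grown to confluence after selection with puromycin. No culture was treated, and the background strain of the mice was not given in the sources used here. Both genotypes carry a human gene, and cultures with an intact mouse *Apoe* gene were not analysed here.

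Leukocytes leave the blood in steps. Selectins on the endothelial surface catch passing cells and let them roll, members of the immunoglobulin superfamily such as VCAM-1 and ICAM-1 then hold them firmly through leukocyte integrins, and junction proteins such as PECAM-1 take part as the cells pass the vessel wall. In the healthy brain, endothelial cells are known for low levels of the selectins and of VCAM-1, which are induced in inflammation.

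With *APOE4*, transcripts of the capture receptor *Selp* and of the firm-adhesion receptor *Vcam1* were higher, and in both genes the lowest *APOE4* culture lay above the highest *APOE3* culture. Of the 10 adhesion molecules 9 were abundant enough to test. Among these 9, *Selp* and *Vcam1* were called higher and 0 were called lower by edgeR's quasi-likelihood F test (adjusted p under 0.05, Benjamini-Hochberg over the 12481 genes tested). By an unadjusted p under 0.05 the 9 held 4 genes, *Selp*, *Vcam1*, *Esam* and *Mcam*, beside 3617 of all 12481 genes. DESeq2's Wald test also called *Selp* and *Vcam1* after adjustment, among 1958 genes in all. Over all genes tested, 12.8% were called, 6.71% as higher and 6.09% as lower, and 0.256% were higher without overlap between the libraries of the genotypes. The median log2 fold change was 0.08 over the 9 adhesion molecules and 0.00 (-0.000219) over all genes tested.

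The libraries held 12717847 to 18624417 counts each, and 0 of 16 went against their sex label at *Xist* and *Ddx3y*. Human *APOE* had 15504 to 22318 counts in *APOE3* and 7672 to 14722 in *APOE4* libraries, which does not tell the isoforms apart, and mouse *Apoe* had 128 to 290 counts per library. The 18 endothelial markers were all detected, with a summed level of 17272 to 18777 CPM (counts scaled to a common library size) in *APOE3* and 16886 to 19251 CPM in *APOE4* cultures. The log2 fold changes of these 18 had a median of -0.05, and 5 were above 0. By edgeR 1 was called higher, *Emcn* (0.14, adjusted p = 0.0106), beside 6.71% of all genes. Called lower were 2, *Egfl7* (-0.16, adjusted p = 0.00835) and *Slco1c1* (-0.31, adjusted p = 0.0472), beside 6.09%. Transcripts of leukocytes and platelets were scarce. Of 8 general leukocyte markers, *Cd52* and *Cd3e* were at 0 counts in all libraries, *Ptprc* had at most 4 counts, and 5 had at most 10. The summed level of this list was 16.7 to 24.6 CPM in *APOE3* and 21.6 to 29.3 CPM in *APOE4*, almost all of it from *Laptm5*, a lysosomal membrane protein, which was called higher (log2 fold change 0.36, SE 0.0861, edgeR adjusted p = 0.0126), and its part in the results was not tested. Of 8 platelet markers, *Ppbp*, *Gp9* and *Treml1* were at 0 counts in all libraries, and the summed level was 2.48 to 5.28 CPM in *APOE3* and 2.38 to 3.37 CPM in *APOE4*. Markers of pericytes and smooth muscle cells, which can also make VCAM-1 and MCAM, summed to 193 to 361 CPM in *APOE3* and 227 to 344 CPM in *APOE4*, and 0 of the 8 tested were called by edgeR, with 7 of 8 log2 fold changes above 0 and a median of 0.22 (*Myh11*, 0.56, edgeR adjusted p = 0.105; *Pdgfrb*, 0.36, edgeR adjusted p = 0.304). Fibroblast markers summed to 13.3 to 65.3 CPM in *APOE3* and 10.4 to 85.2 CPM in *APOE4*, *Dpt* was at 0 counts in all libraries, and 0 of the 4 tested were called by edgeR, with 3 of 4 above 0 and a median of 0.30 (*Col3a1*, 1.06, edgeR adjusted p = 0.0786). The part of these cells in the levels of *Vcam1* and *Selp* was not tested. In cultures of mixed cells, a change in the share of a cell type and a change in RNA per cell cannot be told apart.

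Levels between genes were compared per length, as CPM divided by the exon length in kilobases (RPKM), over the 16 cultures. The junction molecules led. *Pecam1*, which binds itself between neighbouring endothelial cells and on crossing leukocytes, had 584 ± 19.5 RPKM (SD, n = 16), and 36 of 12467 tested genes with a known length were above it. *Esam*, an immunoglobulin-like molecule of endothelial tight junctions, had 368 ± 12.6 RPKM. The ICAMs, ligands of the leukocyte integrin LFA-1, followed with 109 ± 15.9 RPKM for *Icam1* and 106 ± 7.88 RPKM for *Icam2*. *Mcam* (CD146), a junction molecule of endothelial cells that pericytes also carry, had 79.0 ± 19.4 RPKM, and *Vcam1*, the receptor of the integrin VLA-4, had 62.4 ± 11.3 RPKM.

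The remaining 4 genes were lower. *Sele*, the cytokine-induced selectin of endothelium, had 6.00 ± 1.33 RPKM, close to the middle of all tested genes, of which 50.4% were at or below it. *Alcam*, a ligand of CD6 on T cells, had 3.33 ± 0.277 RPKM, and *Selp*, the selectin that endothelial cells keep in Weibel-Palade bodies, had 2.52 ± 1.18 RPKM. *Madcam1*, the receptor of gut-homing lymphocytes, had 0.360 ± 0.181 RPKM from 2 to 15 counts per library and did not pass the filter on low counts, so it was not tested between genotypes.

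Of the 9 neighbouring pairs in this order, 7 differed across the 16 cultures (two-sided exact permutation test by sign flips, adjusted p = 4.58e-05 for 6 pairs, each at the smallest p this test can give, and 0.00424 for *Alcam* above *Selp*). This test pools the genotypes. *Alcam* and *Selp* had means of 3.23 and 1.73 RPKM in *APOE3*, but 3.42 and 3.31 RPKM in *APOE4* cultures. *Icam1* and *Icam2* did not differ beyond their spread (exact permutation test, adjusted p = 0.659; *Icam1* was higher in 10 of 16 cultures). *Mcam* and *Vcam1* did not either (exact permutation test, adjusted p = 0.0594; *Mcam* was higher in 12 of 16). Their order turned over with the length used: by the longest transcript (4088 bases for *Vcam1*, against 8870 bases of exon in all) *Vcam1* was above *Mcam*, with 135 ± 24.5 against 88.5 ± 21.7 RPKM, and the step between *Icam1* and *Icam2* passed the threshold (exact permutation test, adjusted p = 0.00231).

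**Figure D1:**
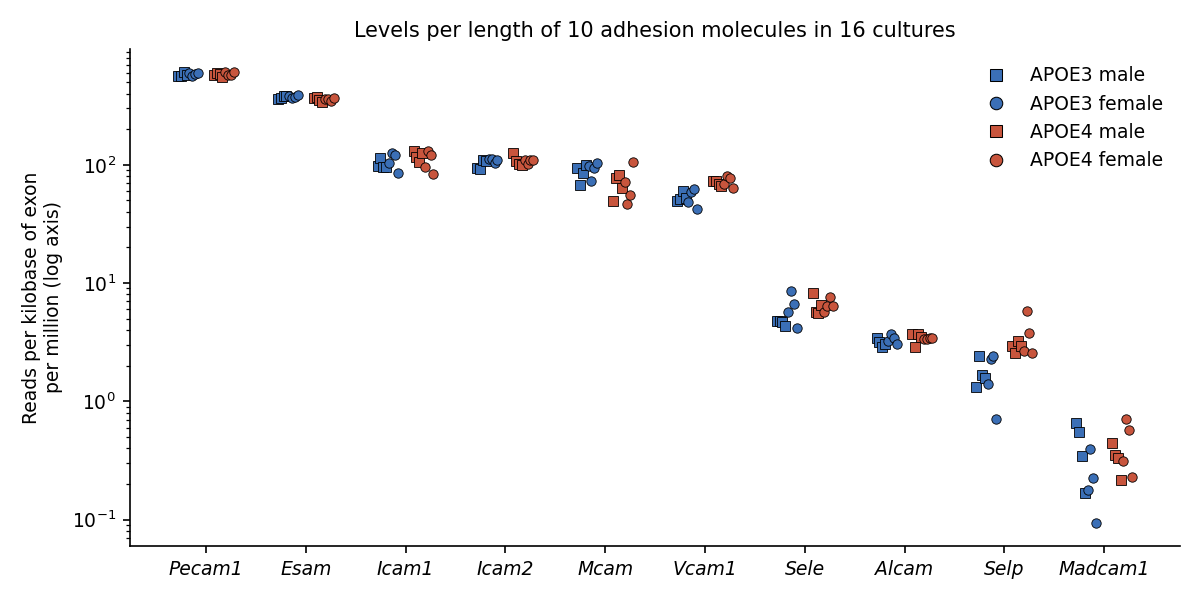
Level of each of 10 adhesion molecules in RPKM (log axis), ordered by mean; each point is a culture, blue for *APOE3* and red for *APOE4*, squares for males and circles for females. *Pecam1* and *Esam* stand at the top with the least spread, 6 genes from *Pecam1* to *Vcam1* lie above 40, and *Sele*, *Alcam*, *Selp* and *Madcam1* lie below 10.

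*Selp* (ENSMUSG00000026580.16) lies at chr1:164115264-164150026 on the forward strand of GRCm38. Its product, P-selectin, is stored in Weibel-Palade bodies and binds PSGL-1 on leukocytes once brought to the surface. In *APOE3* cultures its level ran from 3.15 CPM through a median of 7.15 to 10.7 CPM, and in *APOE4* cultures from 11.3 CPM through 12.9 to 25.5 CPM. All 8 *APOE4* cultures were therefore above all *APOE3* cultures, by a narrow gap at the boundary, and *APOE4* replicate 40, a female culture, lay apart at the top. The means were 7.61 ± 2.67 CPM and 14.6 ± 4.78 CPM (SD, n = 8 each), 1.92-fold higher with *APOE4*, with an adjusted p of 0.00872 by edgeR for the log2 fold change of 0.94 ± 0.205 (SE). *Selp* had 47 to 379 counts per library, where counting alone gives a coefficient of variation of 9.22% at the *APOE3* mean and 6.60% at the *APOE4* mean, against 35.1% and 32.7% seen between cultures. Without *APOE4* replicate 40 the log2 fold change was 0.78 (adjusted p = 0.0179), and over all 16 fits that each left out 1 library it stayed between 0.78 and 1.03 and was called in 16 of 16.

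*Vcam1* (ENSMUSG00000027962.14, chr3:116109949-116129688, reverse strand) was an abundant transcript with a smaller and tighter difference. Its level ran from 377 CPM through a median of 461 to 553 CPM in *APOE3* cultures, and from 569 CPM through 629 to 713 CPM in *APOE4* cultures. The genotypes did not overlap, and the highest culture was again *APOE4* replicate 40. Means were 471 ± 59.3 CPM and 636 ± 48.7 CPM (SD, n = 8 each), a 1.35-fold difference (log2 0.43 ± 0.0668, SE) with an edgeR adjusted p of 0.00423. *Vcam1* was called in 16 of 16 fits that left out 1 library, with log2 fold changes of 0.39 to 0.47.

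The 2 calls did not hold when the cell cycle score was a covariate. This score, the mean log2 CPM of 36 cell cycle genes of which 34 were called higher, was 5.56 ± 0.354 in *APOE3* and 6.16 ± 0.276 in *APOE4* cultures (SD, n = 8 each). With it in the edgeR fit, the log2 fold change was 0.24 for *Vcam1* (adjusted p = 0.519) and 0.50 for *Selp* (adjusted p = 0.706), 0 of 12481 genes were called and 896 had an unadjusted p under 0.05, *Vcam1* being the single adhesion molecule among them. The score was itself higher with *APOE4*, so this fit cannot cleanly separate the score from genotype. The part of the score in the higher levels of *Selp* and *Vcam1* was not tested beyond this fit.

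*Sele* (ENSMUSG00000026582.6, chr1:164048234-164057677, forward strand) encodes E-selectin and is the nearest tested gene before *Selp*, 57.6 kb away. Its level was 12.1 CPM, 13.9 CPM and 25.0 CPM at the lowest, the median and the highest *APOE3* culture, and 16.3 CPM, 18.7 CPM and 23.9 CPM in *APOE4*. All 8 *APOE4* cultures were above the *APOE3* median, but the groups overlapped, since *APOE3* replicate 31 was the highest of all. The log2 fold change was 0.26 ± 0.129 (SE) and did not pass the threshold (edgeR adjusted p = 0.189). Without *APOE3* replicate 31 it was 0.38 and passed (edgeR adjusted p = 0.0161). This was the only call in 16 fits that each left out 1 library, with log2 fold changes of 0.21 to 0.38 (edgeR adjusted p up to 0.329).

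The selectins thus differed from each other in the size of the difference. The log2 ratio of *Selp* to *Sele* within a library was -1.12 ± 0.468 in *APOE3* and -0.42 ± 0.407 in *APOE4* (SD, n = 8 each), a difference of 0.70 (two-sided exact permutation test over 12870 assignments, p = 0.00513, the same after adjustment over 4 ratios). *Selp* was also higher relative to *Vwf*, the main cargo of Weibel-Palade bodies, by 0.97 on the log2 scale (exact permutation test, adjusted p = 0.000622), and here all 8 *APOE4* cultures were above all *APOE3* cultures. *Vwf* itself had 2660 ± 291 CPM and 2690 ± 300 CPM (SD, n = 8 each; edgeR adjusted p = 0.912). *Vcam1* was higher relative to *Icam1* by 0.32 (exact permutation test, adjusted p = 0.00228) and relative to *Pecam1* by 0.43 (exact permutation test, adjusted p = 0.000622). These genes were put into ratios with their own changes known, so the ratios restate those changes within libraries.

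The bases before the starts of *Selp* and *Sele* are shown because these selectin genes are neighbours and differed in size of change. Both are 250 bases, 5′ to 3′ on the forward strand of GRCm38.p6, from RefSeq, *Selp* at chr1:164115014-164115263 and *Sele* at chr1:164047984-164048233. Capitals mark matches on either strand to GATA and to the AP-1-like pattern TGANTCA, in which N is any base.

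Selp: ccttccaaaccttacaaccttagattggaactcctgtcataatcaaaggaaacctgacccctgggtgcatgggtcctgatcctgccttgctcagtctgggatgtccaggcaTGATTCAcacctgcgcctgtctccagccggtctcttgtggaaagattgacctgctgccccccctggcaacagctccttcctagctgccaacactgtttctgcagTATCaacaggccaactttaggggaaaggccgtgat

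Sele: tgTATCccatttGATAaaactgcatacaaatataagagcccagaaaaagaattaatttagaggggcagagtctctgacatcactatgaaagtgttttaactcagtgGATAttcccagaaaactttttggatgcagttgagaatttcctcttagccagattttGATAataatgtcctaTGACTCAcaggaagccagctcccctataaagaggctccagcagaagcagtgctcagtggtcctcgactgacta

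The *Selp* stretch held 1 AP-1 match, starting at base -139 from the gene start, 1 GATA match at -35 and 6 matches to the ETS core GGAA. The *Sele* stretch held 1 AP-1 match at -73, 4 GATA matches, 3 GGAA matches and a TATAAA at -49. Of 32851 promoter stretches of this length, 6.75% held the AP-1 motif, 53.6% GATA, 93.4% GGAA and 12.4% TATAAA. The NF-kB consensus was taken as GGGRNNYYCC (R is A or G, Y is C or T, N is any base), found in 7.25% of promoters. It had 0 matches in these 2 stretches and 2 in that of *Madcam1*, at -83 and -70, of the 6 adhesion molecules in the RefSeq promoter table (*Selp*, *Sele*, *Icam1*, *Mcam*, *Madcam1* and *Alcam*). Runs that depart from this pattern were not counted, so 0 matches does not mean that a stretch lacks NF-kB sites. A match is a run of letters and not a site shown to be bound. The stretches before *Vcam1*, *Icam2*, *Pecam1* and *Esam* were not analysed here.

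On the far side of *Selp*, 1.81 kb after its end, lies *F5*, coagulation factor V, and it was higher as well. *F5* rose from 14.7 ± 3.68 CPM to 24.7 ± 7.09 CPM (SD, n = 8 each; log2 fold change 0.75, SE 0.166, edgeR adjusted p = 0.00917). The nearest tested genes beside *Vcam1* did not pass the threshold: *Extl2*, 80.9 kb before, had a log2 fold change of 0.19 (edgeR adjusted p = 0.145) and *Cdc14a*, 143 kb after, of -0.19 (edgeR adjusted p = 0.143). Antisense annotations share exon bases with some of these genes, 186 and 438 bases in *Selp*, 61 in *Vcam1*, 511 in *Icam1* and 17 in *Mcam*. Of these, *Gm16548* within *Selp* had 6 counts over all libraries and the others were not analysed here. The strand setting of the counting was not given in the sources used here, so antisense reads could not be told apart.

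**Figure D2:**
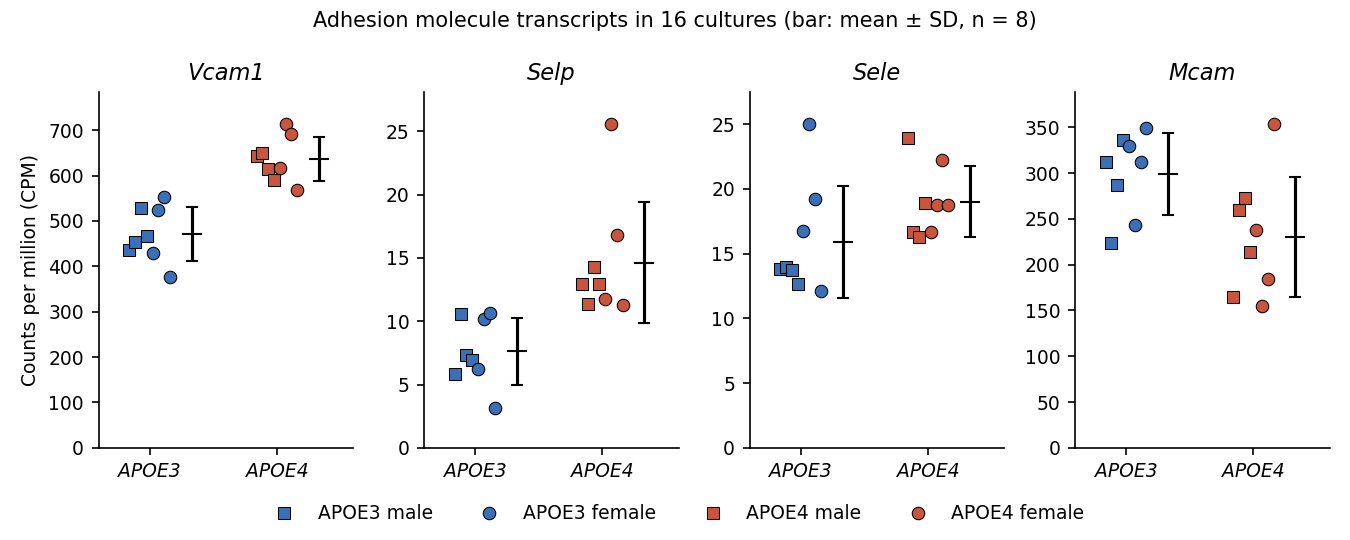
CPM of *Vcam1*, *Selp*, *Sele* and *Mcam* in each of 16 cultures, with the mean and SD (n = 8) beside each genotype; squares are males and circles females. The genotypes are separate for *Vcam1* and *Selp* and overlap for *Sele*, where *APOE3* replicate 31 is at 25.0 CPM, and for *Mcam*, where *APOE4* replicate 43 is at 353 CPM.

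*Mcam* (ENSMUSG00000032135.15, chr9:44134469-44142727, forward strand) was the adhesion molecule with the lowest log2 fold change. Its level was 224 CPM, 312 CPM and 349 CPM at the lowest, the median and the highest *APOE3* culture, and 155 CPM, 226 CPM and 353 CPM in *APOE4*. In 7 of 8 *APOE4* cultures it was below the *APOE3* median, and the exception, *APOE4* replicate 43, was the highest culture of all. The log2 fold change was -0.38 ± 0.138 (SE) and did not pass the threshold (edgeR adjusted p = 0.0743). It passed when *APOE4* replicate 43 was left out (-0.49, edgeR adjusted p = 0.0116) or *APOE3* replicate 31 (-0.41, edgeR adjusted p = 0.0477).

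*Icam1* (ENSMUSG00000037405.8, chr9:21015985-21028817, forward strand), which holds leukocytes by the integrins LFA-1 and Mac-1, ran from 371 CPM through 436 to 550 CPM in *APOE3* and from 362 CPM through 521 to 571 CPM in *APOE4*. The groups overlapped over nearly their whole range, the lowest culture being *APOE4* replicate 43 and the highest *APOE4* replicate 40. The log2 fold change was 0.12 (95% interval -0.06 to 0.30, edgeR adjusted p = 0.398).

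The other junction and constitutive molecules were the least variable. *Icam2* (ENSMUSG00000001029.15, chr11:106377656-106388075), the constitutive ICAM of resting endothelium, had 176 to 213 CPM in *APOE3* and 190 to 239 CPM in *APOE4* (log2 fold change 0.04, 95% interval -0.06 to 0.14, edgeR adjusted p = 0.635). *Pecam1* (ENSMUSG00000020717.19, chr11:106654217-106750628) had 3478 to 3805 CPM and 3408 to 3803 CPM (log2 fold change 0.01, 95% interval -0.05 to 0.07, edgeR adjusted p = 0.883). The ranges of *Pecam1* overlapped almost fully, and those of *Icam2* in part. *Esam* (ENSMUSG00000001946.14, chr9:37528078-37538319) had 1037 to 1107 CPM and 980 to 1082 CPM, with 1 of 8 *APOE4* cultures above the *APOE3* median (log2 fold change -0.06, 95% interval -0.11 to -0.01, edgeR adjusted p = 0.147). *Alcam* (ENSMUSG00000022636.13, chr16:52248996-52454074) had 20.4 to 26.4 CPM in both genotypes (log2 fold change 0.08, 95% interval -0.03 to 0.20, edgeR adjusted p = 0.379). *Madcam1* (ENSMUSG00000020310.9, chr10:79664559-79668537) had 58 counts in all *APOE3* libraries together and 71 in all *APOE4* libraries, too few to compare.

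**Figure D3:**
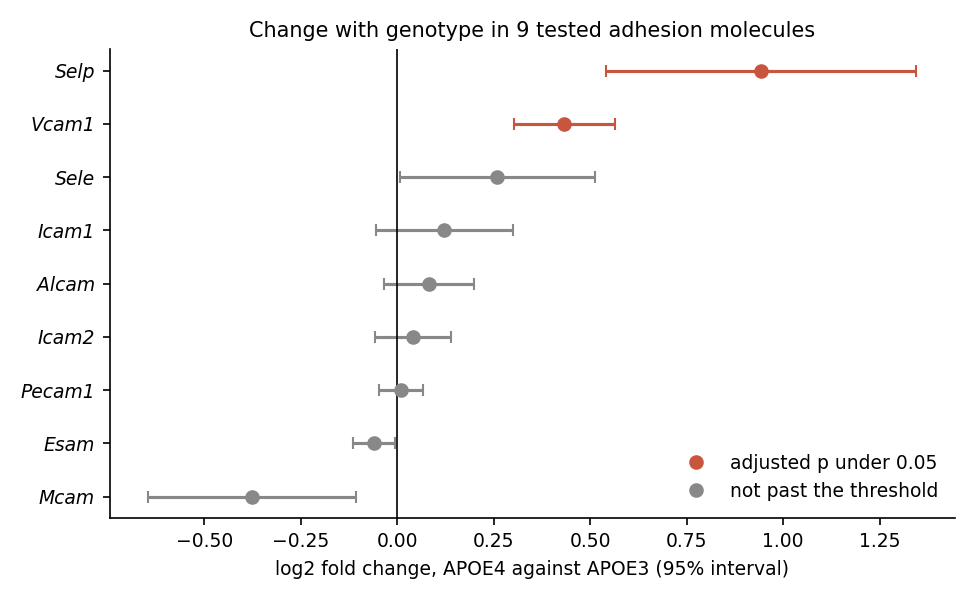
Log2 fold change of the 9 tested adhesion molecules with *APOE4* against *APOE3* (points) and its 95% interval (bars); red genes passed an adjusted p of 0.05 and grey genes did not. *Selp* at 0.94 and *Vcam1* at 0.43 stand to the right, *Mcam* at -0.38 to the left, and the intervals of *Icam1*, *Alcam*, *Icam2* and *Pecam1* include 0. That of *Sele* runs from 0.0071 to 0.51, although its unadjusted p by edgeR was 0.0574, because the bars take the SE as normal.

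Both sexes were then considered, in 1 edgeR fit of 4 groups with 4 cultures each. *Vcam1* averaged 472 ± 39.3 CPM in *APOE3* and 624.9 ± 26.9 CPM in *APOE4* males, and 471 ± 81.5 CPM and 647 ± 66.9 CPM in females (SD, n = 4 each). Its log2 fold change was 0.41 ± 0.0987 in males and 0.46 ± 0.0987 in females (SE). *Selp* had log2 fold changes of 0.75 ± 0.296 in males and 1.11 ± 0.293 in females (SE). Both genes thus had a log2 fold change above 0 in each sex.

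At this group size 0 adhesion molecules passed the adjusted threshold within either sex by edgeR, and neither did any other gene (0% of genes in males, 0% in females). By an unadjusted p under 0.05 there were 1775 genes in males, *Vcam1*, *Selp* and *Sele* among them, and 2428 in females, *Vcam1* and *Selp* among them. DESeq2's Wald test called *Vcam1* in males, out of 35 genes, and *Vcam1* and *Selp* in females, out of 418. The edgeR adjusted p in females was 0.0608 for *Vcam1* and 0.0714 for *Selp*.

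*Sele* was the adhesion molecule with the most unequal pair of values, a log2 fold change of 0.48 ± 0.166 in males and 0.07 ± 0.162 in females (SE). The difference between the sexes, -0.41 ± 0.232 (SE), did not pass (edgeR adjusted p = 1.00, unadjusted p = 0.0910). For this difference 0 adhesion molecules were called and 0 had an unadjusted p under 0.05, and edgeR and DESeq2 each called 0 genes (0%, with 345 and 308 genes at an unadjusted p under 0.05). Between females and males, averaged over genotypes, 0 adhesion molecules were called by edgeR or DESeq2 and 0 had an unadjusted p under 0.05, beside 9 genes (0.0721%) of all tested by edgeR.

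Beyond the difference between genotypes, some pairs of adhesion molecules varied together across cultures. With the genotype mean removed from log2 CPM, 8 of 36 pairs were correlated by Pearson r over 16 cultures, 6 positively and 2 negatively. The test permuted within genotype with 100000 resamples, adjusted over the pairs. By Spearman rho alone, *Icam1* with *Pecam1* (-0.65), *Sele* with *Mcam* (-0.64) and *Icam2* with *Esam* (0.61) also passed (permutation test, adjusted p = 0.0417, 0.0417 and 0.0495). With the means of genotype and sex both removed, and permutation within genotype and sex, 3 of the 8 pairs passed by r. These were *Icam1* with *Selp* (r = 0.85, rho = 0.79), *Pecam1* with *Esam* (r = 0.79, rho = 0.76) and *Icam1* with *Mcam* (r = -0.88, rho = -0.85). Their adjusted p were 0.0184, 0.0184 and 0.000360 (permutation test of r). The other 5 of the 8 did not pass, among them *Vcam1* with *Selp* (r = 0.81, rho = 0.74, permutation test, adjusted p = 0.0514). *Vcam1* and *Selp*, the genes called, were the most strongly linked positive pair (Pearson r = 0.81, Spearman rho = 0.76, permutation test, adjusted p = 0.00936 and 0.0182). The relation was alike within *APOE3* (r = 0.82) and *APOE4* (r = 0.78) and was weaker, at r = 0.65, without the 2 cultures farthest from the median of *Vcam1*. *APOE3* replicate 33 was the lowest *APOE3* culture in *Vcam1*, *Icam1*, *Sele* and *Selp* alike.

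*Icam1* joined this group, with r = 0.70 to *Selp*, 0.66 to *Vcam1* and 0.65 to *Sele* (permutation test, adjusted p = 0.0206, 0.0250 and 0.0250). The values of rho for these were 0.69, 0.58 and 0.76, of which that of *Vcam1* and *Icam1* did not pass (permutation test, adjusted p = 0.0655), and r without the 2 farthest cultures was 0.64, 0.54 and 0.76. *Sele* and *Alcam* had r = 0.66 (rho = 0.64, permutation test, adjusted p = 0.0274 and 0.0485), which was 0.43 without the 2 farthest cultures. *Pecam1* and *Esam*, both junction molecules, formed a second pair (r = 0.77, rho = 0.73, permutation test, adjusted p = 0.0138 and 0.0228), with r = 0.72 without the 2 farthest cultures.

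*Mcam* ran opposite to *Icam1* and *Selp*, and by rho alone to *Sele*. It had r = -0.80 to *Icam1* (rho = -0.79, permutation test, adjusted p = 0.00936 and 0.0182) and r = -0.62 to *Selp* (rho = -0.69, permutation test, adjusted p = 0.0250 and 0.0228), and without the 2 farthest cultures r was -0.68 and -0.55. Correlations with the cell cycle score, after the genotype mean was removed, were 0.70 for *Vcam1*, 0.65 for *Sele*, 0.60 for *Icam1*, 0.55 for *Selp* and -0.64 for *Mcam*. Each of these had an adjusted p of 0.0934 to 0.152 over 36 relations with the score, marker sums and human *APOE* (permutation test), with rho of 0.69, 0.64, 0.61, 0.62 and -0.74 (adjusted p of 0.0526 to 0.105), and r without the 2 farthest cultures was 0.65, 0.33, 0.43, 0.53 and -0.72. The part of the score in the relations between adhesion molecules was not tested.

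**Figure D4:**
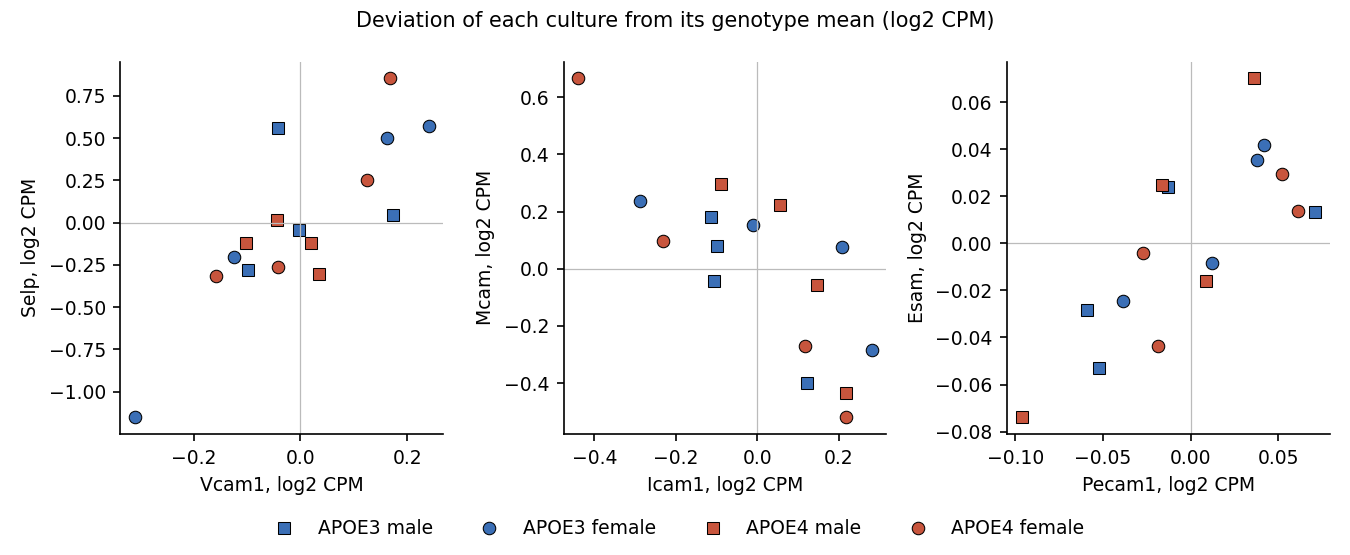
Deviation of each culture from the mean of its genotype, in log2 CPM, for 3 pairs of adhesion molecules; blue is *APOE3*, red *APOE4*, squares males and circles females. *Vcam1* and *Selp* (r = 0.81) and *Pecam1* and *Esam* (r = 0.77) rise together, *Icam1* and *Mcam* (r = -0.80) run opposite, and *APOE3* replicate 33 is the point at the lower left of the first panel.

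**Figure D5:**
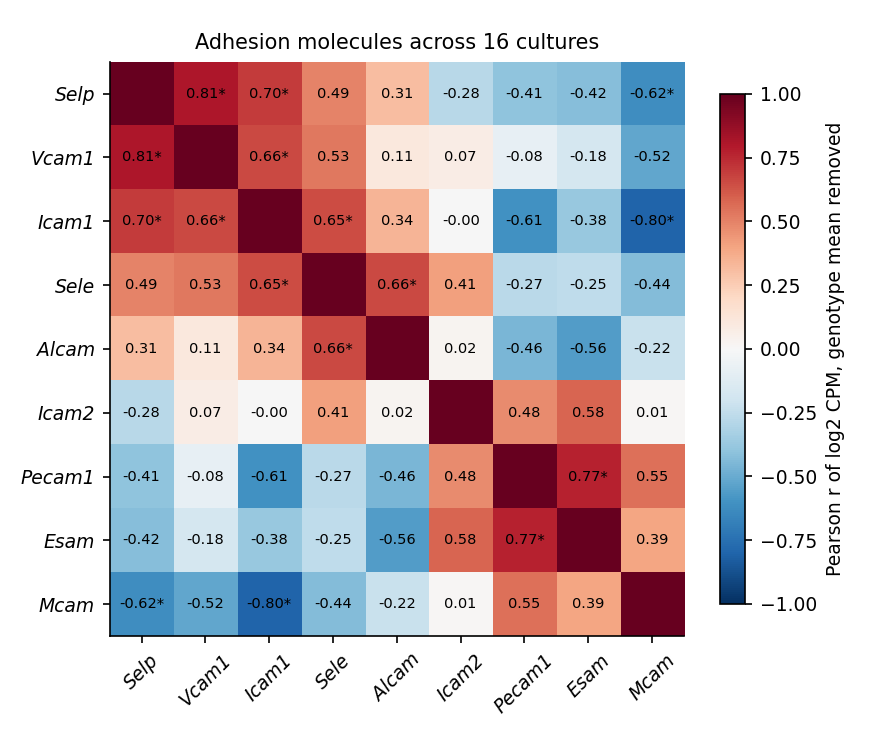
Pearson r of log2 CPM with the genotype mean removed, for all 36 pairs of 9 adhesion molecules over 16 cultures; red is positive, blue negative, and an asterisk marks the 8 pairs with an adjusted p under 0.05. *Selp*, *Vcam1*, *Icam1* and *Sele* form a positive block at the upper left, and the row of *Mcam* is negative against it.

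Among all other tested genes, those most like *Vcam1* over the 16 cultures, with the genotype mean removed, were *Cpne2* (r = 0.93), a copine, *9930111J21Rik2* (r = 0.88) and *Ace* (r = 0.88), angiotensin-converting enzyme, out of 33 genes with r over 0.8. All 3 were called higher, *Ace* from a mean of 1683 to 2314 CPM (log2 fold change 0.46, SE 0.0897, edgeR adjusted p = 0.00643). Those most like *Selp* were *Asap3* (r = 0.86), *Pdgfd* (r = 0.85), a platelet-derived growth factor, and *4930486L24Rik* (r = 0.83), out of 10 with r over 0.8. Of these, *Pdgfd* (log2 fold change 0.17, edgeR adjusted p = 0.0415) and *4930486L24Rik* (0.31, edgeR adjusted p = 0.0378) were called higher and *Asap3* was not (0.11, edgeR adjusted p = 0.217). These correlations describe 16 cultures of the same experiment and share their libraries.

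The genes around these receptors were looked at by list. Of 118 tested genes in 7 lists of the same pathway, 7 were called higher and 8 lower (15 in all, against 12.8% of all genes), with a median log2 fold change of 0.02. The list of receptors that leukocytes carry was nearly empty: of 10 genes, 1 was tested, *Itga4*, the alpha chain of VLA-4, which endothelial cells can also express (log2 fold change -0.09, edgeR adjusted p = 0.438), while *Itgam*, *Cd6* and *Cd177* were at 0 counts and *Itgal*, *Itgax* and *Itgb2* had at most 9.

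Of 12 tested genes of selectin ligands and their sugar and sulfate modification, 1 was higher and 1 lower, beside 6.71% and 6.09% of all genes. *Emcn*, a sialomucin of venous and capillary endothelium, was higher, with 916 ± 36.0 CPM in *APOE3* and 1010 ± 39.9 CPM in *APOE4* (SD, n = 8 each; edgeR adjusted p = 0.0106). *Tpst2*, a tyrosine sulfotransferase, was lower, at 120 ± 8.01 CPM and 107 ± 4.85 CPM (edgeR adjusted p = 0.0118). *Cd34*, another sialomucin, had a log2 fold change of -0.07 (edgeR adjusted p = 0.367).

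Of 20 genes that dock the tails of ICAM-1 and VCAM-1 to the cytoskeleton and signal from them, 17 had a log2 fold change above 0 (6232 of 12481 among all genes) and 2 were called higher, near the 6.71% of all genes: *Rdx*, the ERM protein radixin (log2 fold change 0.14, SE 0.0329, edgeR adjusted p = 0.0118), and *Rhog*, a small GTPase of the docking cup (0.18, SE 0.0453, edgeR adjusted p = 0.0151). The ERM protein *Msn* had 0.12 (edgeR adjusted p = 0.0593). The median of this list was 0.07. Of 18 tested genes of the junction and of crossing, 0 were called by edgeR in either direction and the range was -0.36 (*Aoc3*) to 0.16 (*Cd9*).

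The largest list held 40 genes of cytokine receptors, NF-kB and other transcription factors that control these receptors. In it 1 gene was higher and 4 were lower, beside 12.8% of all genes called in either direction. *Il1r1*, the signaling receptor of interleukin-1, was higher, with 64.0 ± 5.56 CPM in *APOE3* and 80.2 ± 7.81 CPM in *APOE4* (SD, n = 8 each; edgeR adjusted p = 0.00603). Lower were *Klf4*, a factor of quiescent endothelium (70.9 ± 10.5 CPM and 54.0 ± 8.62 CPM, edgeR adjusted p = 0.0135), *Stat6* (log2 fold change -0.23, edgeR adjusted p = 0.00574), *Gata2* (-0.17, edgeR adjusted p = 0.0315) and *Nfkb1*, the p105 and p50 subunit of NF-kB (-0.12, edgeR adjusted p = 0.0251). *Rela*, the main activating subunit, had 0.02 (edgeR adjusted p = 0.791), and *Nfkbia*, its inhibitor and a rapid target, had -0.05 (edgeR adjusted p = 0.298). In each called gene of this list all 8 *APOE4* cultures lay on the same side of the *APOE3* median.

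Of 19 tested genes of Weibel-Palade bodies and their release, 2 were higher and 1 lower, beside 6.71% and 6.09% of all genes. Higher were *Ece1*, endothelin-converting enzyme (1856 ± 125 CPM and 2135 ± 108 CPM, SD, n = 8 each, edgeR adjusted p = 0.00800), and *Rab3d* (log2 fold change 0.25, edgeR adjusted p = 0.0355). *Cd63*, the tetraspanin that stabilises P-selectin at the surface, was lower (log2 fold change -0.24, SE 0.0683, edgeR adjusted p = 0.0278). Of 8 tested genes that shed receptors from the surface or restrain this, 1 was higher and 2 lower, beside the same shares of all genes. *Adam17*, the sheddase of VCAM-1, was higher (log2 fold change 0.16, SE 0.0383, edgeR adjusted p = 0.0143), and its inhibitor *Timp3* (-0.28, SE 0.0747, edgeR adjusted p = 0.0200) and its partner *Rhbdf1* (-0.10, SE 0.0285, edgeR adjusted p = 0.0296) were lower.

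*Vcam1*, *Icam1* and *Selp* are also used as markers of venous endothelial cells. Of the 5 other venous markers, *Lrg1* was called higher (16.05 ± 3.23 CPM and 21.7 ± 3.98 CPM, SD, n = 8 each; edgeR adjusted p = 0.0293), and the other 4 were not: *Ackr1* had a log2 fold change of -0.30 (edgeR adjusted p = 0.137), *Nr2f2* of -0.11 (edgeR adjusted p = 0.241), *Slc38a5* of 0.06 (edgeR adjusted p = 0.720) and *Vwf* of 0.02. *Ackr1* and *Nr2f2* were above the *APOE3* median in 1 of 8 *APOE4* cultures each. Of 8 tested arterial markers 2 were called higher, beside 6.71% of all genes, *Gja5* (log2 fold change 0.60, edgeR adjusted p = 0.00715) and *Mgp* (0.71, edgeR adjusted p = 0.00766). Summed levels were 3171 to 4194 CPM and 3535 to 4537 CPM for the venous list and 447 to 648 CPM and 475 to 691 CPM for the arterial list, in *APOE3* and *APOE4*, and overlapped in both. The venous sum includes *Vcam1*, *Icam1* and *Selp* themselves, and most of it is *Vwf* (means of 2660 and 2690 CPM). The part of venous and arterial cells in the levels of *Vcam1* and *Selp* was not tested.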

How the data were processed

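The deposited table holds raw counts, whole numbers of reads per gene, without normalization by the authors. The submitters' processing notes name STAR, featureCounts, mm10 and hg38, and no version or strand setting was given in the sources used here. Every one of the 16 columns was matched to a library by its label. Of 39056 mouse identifiers, 38872 were in GENCODE vM21 (GRCm38), which gave symbols, positions and exon lengths. Libraries were made with 17 cycles of PCR and no molecular identifiers, so precision from depth covers counting error only. Each replicate is 1 brain.

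Counts were fitted in R 4.3.3 with edgeR 4.0.16 (filterByExpr by genotype, TMM, genotype alone, quasi-likelihood F test, Benjamini-Hochberg over 12481 genes, threshold 0.05). The SE of a log2 fold change was its size over the square root of F. The 95% intervals took that SE as normal, which makes them narrower than the F test would. Log2 CPM used a prior count of 2. RPKM was CPM per kilobase of merged exons, tested as log2(RPKM + 0.01). Alternatives used DESeq2 1.42.0, limma 3.58.1 and sva 3.50.0, other filters and covariates, and each library left out. Exact permutation tests used scipy 1.17.1 under Python 3.11.15. The fit was tested on simulated data. Correlations were permuted within genotype, or within genotype and sex where both means were removed.

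The adhesion molecules and lists were chosen with earlier results of these data known. Named were all 10 adhesion molecules, called genes of each list (at most 8), the 3 genes most like each called adhesion molecule and its nearest tested protein-coding neighbours. Genes named without a call were chosen after their values were seen.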

Additional observations from a re-analysis of the deposited data

Results flagged for a closer look

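Of 20 groups looked at, the 10 adhesion molecules in each genotype, 3 held a culture that lay far from the other 7, and chance alone gives about 1 in 20. *APOE4* replicate 35 was the highest of its group in *Icam2*, at 239.2 CPM, and the next culture was at 208.4 CPM. *APOE4* replicate 40 was the highest of its group in *Selp*, at 25.5 CPM, and the next was at 16.8 CPM. *APOE4* replicate 36 was the lowest of its group in *Alcam*, at 20.4 CPM, and the next was at 23.9 CPM. Different cultures were apart in the 3 genes.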

How the results depend on the processing

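*Vcam1* and *Selp* were called in 7 of 8 alternative fits and in all 16 fits that left out 1 library, and the exception was the cell cycle score as a covariate. With that covariate 0 adhesion molecules, 0 pathway genes and 0 of all genes were called by edgeR, while 1, 6 and 896 had an unadjusted p under 0.05, and the log2 fold change turned to -0.11 for *Icam1*, -0.0055 for *Icam2*, -0.10 for *Sele*, -0.0236 for *Alcam* and 0.0080 for *Mcam*. The cause was not tested.

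DESeq2's Wald test called 24 pathway genes (15 by edgeR), but also more genes in all, 1958 against 1597 by edgeR. Within males it called 1 adhesion molecule out of 35 genes, and within females 2 out of 418 (0 by edgeR). Leaving out 1 library at a time gave 2 to 4 called adhesion molecules, 4 of them without *APOE3* replicate 31, 0 to 2 within females, and 846 to 2127 genes in all (1597 with all libraries). The low counts were 846 without *APOE4* replicate 41, 853 without *APOE3* replicate 30 and 952 without *APOE3* replicate 33. Within females, 2 were called without *APOE3* replicate 31, 1 without *APOE3* replicate 32 and 1 without *APOE4* replicate 35. *Pecam1* ranged from -0.00029 to 0.0220 and was below 0 without *APOE4* replicate 39. With genotype and sex means removed, 3 pairs of adhesion molecules were correlated by Pearson r (8 with the genotype mean alone).

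No paired analysis was possible because the genotypes share no replicate numbers. The 9 tested adhesion molecules had at least 47 counts in every library, and *Madcam1*, with 2 to 15, was too low to compare.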
